A study of Arabidopsis thaliana with 9 samples.

Results

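Seedlings of 2 natural lines (accessions) of Arabidopsis thaliana, Col-0 and WS, were compared after 24 h at 4 °C. The members of the comparison were the arrays whose titles name that treatment, 2 of WS and 5 of Col-0, or 7 of the 9 arrays in the series. For each probe set, a group of short probes that together read a transcript, the mean log2 signal of the WS arrays was set against the mean of the cold Col-0 arrays. No WS array at 22 °C was used here, so each value below is a difference between accessions in the cold and not a response to cold.

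Both accessions were wild type. Seedlings, roots included, were 10 days old and had grown on sucrose-free Gamborg's medium with 0.7% agar in constant light of 60 to 80 microE at 22 °C, after 3 days of stratification. Affymetrix ATH1 arrays measured total RNA, and 2 arrays of Col-0 kept at 22 °C completed the series. The WS arrays are labelled WS in the titles and WS2 in the ecotype field. Of the cold Col-0 arrays, 2 carry the name set 4, which the labels do not explain, as they do not explain the codes q6ws and q8ws of the WS arrays.

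Accessions differ in sequence across the genome, including whole genes that one holds and another lacks, and transcript levels differ between them at many loci. Resistance genes, defence peptides and enzymes of specialised metabolism are classes known to vary between accessions. Cold acts through CBF transcription factors, which switch on COR genes for dehydrins and chloroplast proteins, and it also slows growth and favours anthocyanin synthesis. The ATH1 probes were designed on Col-0 sequence, so a lower transcript level and a poorer probe match in WS cannot be told apart here. WS sequence was not analysed here.

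COR15A, a cold-regulated chloroplast protein gene, was bright on every cold array of either accession. It stood at 6.42 and 8.32 on the 22 °C Col-0 arrays, between 13.35 and 13.53 on the 5 cold Col-0 arrays, and at 13.35 and 13.06 on the WS arrays. Of 6 measured COR genes none was called different between the accessions in the limma fit, beside 1.95% of all genes. Their median difference was -0.02 on the log2 scale, beside 0.02 for all 13356 genes. Array medians lay between 5.81 and 5.88 except for replicate 3 of cold Col-0, at 6.06. Pairs of cold Col-0 arrays had between 143 and 1064 probe sets at least 2-fold apart, the WS pair had 403, and pairs of a WS with a cold Col-0 array had between 708 and 1814. The ranges within Col-0 and between accessions overlapped. The 2 set 4 arrays were also set as a group against the other 3 cold Col-0 arrays. In that contrast 1 probe set, not assigned to exactly 1 gene, was called (0.0044%), and 2401 had an unadjusted limma p under 0.05.

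WS and Col-0 differed at a small share of probe sets, more often with the lower signal in WS. Of 22746 probe sets, 486 (2.14%) were called at an adjusted p under 0.05 (limma, Benjamini-Hochberg over all probe sets) with a difference of at least 1 on the log2 scale. WS was higher at 195 (0.857%) and lower at 291 (1.28%), so 59.9% of the calls were lower. At 102 probe sets (0.448%) the difference was at least 4-fold, and 74 of these were lower in WS. The largest class, at least 4 on the log2 scale, held 3 higher and 11 lower probe sets, while differences between 1 and 2 held 167 higher and 217 lower. Of 13356 genes with a probe set of their own, 261 (1.95%) were called, 110 higher (0.824%) and 151 lower (1.13%). The 2 WS arrays lay outside the range of the 5 cold Col-0 arrays at every called probe set, against 23.4% of all probe sets, 2761 above and 2569 below. At an unadjusted p under 0.05, 2236 were higher and 2137 lower. Without WS replicate 2 the calls fell to 285, of which 111 were higher and 174 lower. Whether replicate arrays stem from separately grown plants is not stated in the labels, and the p-values cover no more than the spread among these arrays.

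**Figure D1:**
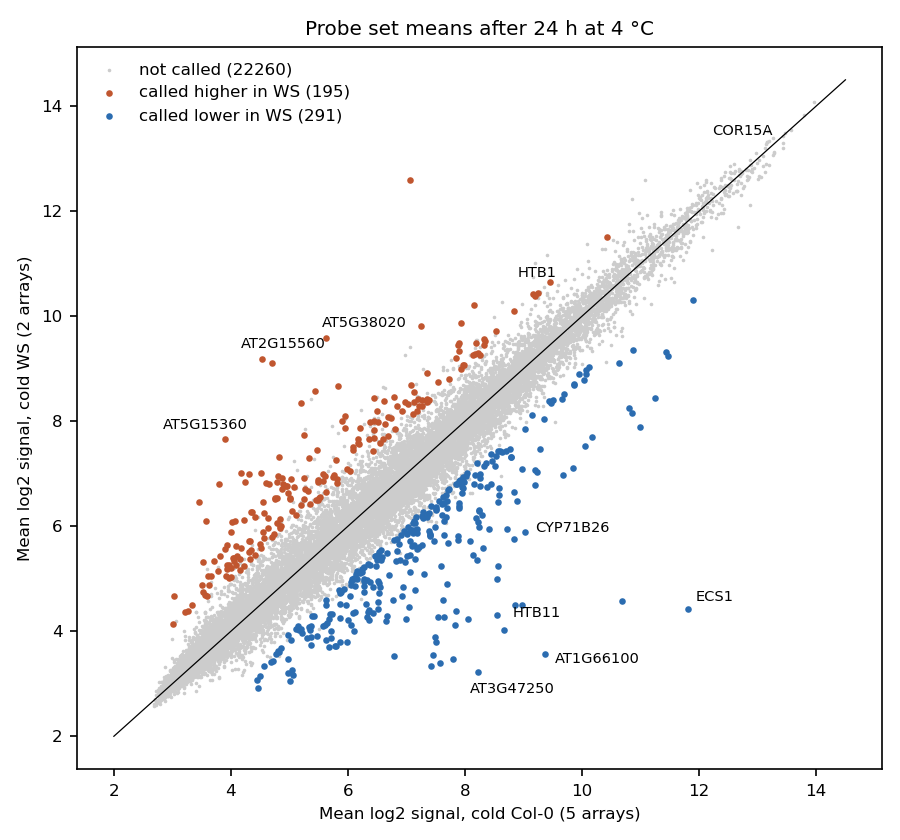
Mean log2 signal of each of 22746 probe sets on the 5 cold Col-0 arrays (horizontal axis) and the 2 cold WS arrays (vertical axis), with the diagonal marking equal signal. The 195 probe sets called higher in WS lie above the diagonal and the 291 called lower below it, with ECS1 the farthest below, while COR15A lies close to it.

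ECS1, which encodes a cell wall protein, had the largest difference of any named gene. It stood at 11.83, 11.93, 11.60, 11.83 and 11.83 on the cold Col-0 arrays (replicates 1 to 3, then set 4) and at 4.15 and 4.68 on the WS arrays. The values of cold Col-0 replicate 1 and both set 4 arrays were identical in every digit, and why was not tested. Col-0 at 22 °C gave 12.88 and 13.26. ECS1 was thus among the brighter transcripts on every Col-0 array and close to the dim end of the scale on both WS arrays, where the lowest 20% of probe sets have a mean under 3.69. The difference was -7.39 (SE 0.17), or 168-fold (limma adjusted p = 5.66e-08). These are whole seedlings, in which fewer cells of a type and less RNA per cell cannot be told apart.

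Several loci known here by number alone followed, with signal in cold Col-0 and little in WS. AT1G66100 read 9.93, 9.37, 8.60, 9.25 and 9.65 on the cold Col-0 arrays and 3.41 and 3.71 in WS (log2 difference -5.80, SE 0.40, limma adjusted p = 5.66e-05). For AT3G47250 the cold Col-0 arrays read 8.07, 8.24, 8.38, 8.23 and 8.22, and the WS arrays 3.34 and 3.11 (-5.005, SE 0.11, adjusted p = 5.66e-08). In both loci the WS mean lay under the dim signal of 3.69. At AT3G47250 the 22 °C Col-0 arrays, at 9.46 and 9.45, were brighter than every cold Col-0 array. At AT1G66100 they stood at 10.93 and 9.55, the latter within the range of the cold Col-0 arrays. AT1G73490 stood between 8.81 and 9.08 in cold Col-0 and at 4.83 and 4.17 in WS (-4.48, SE 0.17). AT2G40010, the locus with the largest difference on chromosome 2 among those lower in WS, stood between 7.53 and 8.05 in cold Col-0, at 5.55 and 5.71 in Col-0 at 22 °C, and at 3.29 and 3.66 in WS (-4.32, SE 0.17). Cold Col-0 was thus above Col-0 at 22 °C at this locus, and WS in the cold was below both. AT5G03350 showed the other order, at 9.87 and 10.64 in Col-0 at 22 °C, 7.90 to 9.06 in cold Col-0, and 4.04 and 4.59 in cold WS (-4.24, SE 0.34). The remaining loci among the 15 lowest, AT1G76960, AT3G43740, AT1G11280, AT1G23960, AT4G20480, AT1G63880 and AT3G44630, differed by -4.08 to -3.25, with limma adjusted p-values between 3.16e-07 and 0.00138.

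The loci highest in WS were dim or moderate in Col-0. AT2G15560 read 4.69, 4.54, 4.54, 4.35 and 4.54 in cold Col-0 and 8.54 and 9.85 in WS, a difference of 4.66 (SE 0.28) or 25.3-fold (limma adjusted p = 2.69e-05). AT5G38020 read 5.79, 5.50, 5.05, 5.99 and 5.77 in cold Col-0 and 9.42 and 9.76 in WS (3.97, SE 0.31, adjusted p = 0.000113). AT5G15360 read 3.79, 3.72, 3.96, 3.93 and 4.11 in cold Col-0 and 7.50 and 7.82 in WS (3.76, SE 0.14, adjusted p = 1.65e-06). The Col-0 arrays at 22 °C lay beside the cold Col-0 arrays at AT2G15560 (4.54 and 4.31) and AT5G15360 (3.96 and 3.72), and none came near WS. AT4G23680, AT2G28400, AT3G26460 and AT4G19240 were higher in WS by 3.16, 3.13, 3.01 and 3.00. Cold Col-0 means of AT3G26460 (3.46) and AT4G19240 (3.80) lay near the dim end of the scale. At AT3G17520, replicate 3 of cold Col-0 stood apart at 5.96 while the other 4 lay between 3.57 and 3.94, and WS stood at 6.94 and 6.76. Its difference of 2.60 (SE 0.56, adjusted p = 0.0331) was not called when cold Col-0 replicate 1, 2 or set4-1 or either WS array was left out (adjusted p between 0.0691 and 0.17). The call of AT2G32190 (2.21, SE 0.40), whose WS arrays stood at 6.07 and 7.57, was lost without WS replicate 2 (adjusted p = 0.125).

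**Figure D2:**
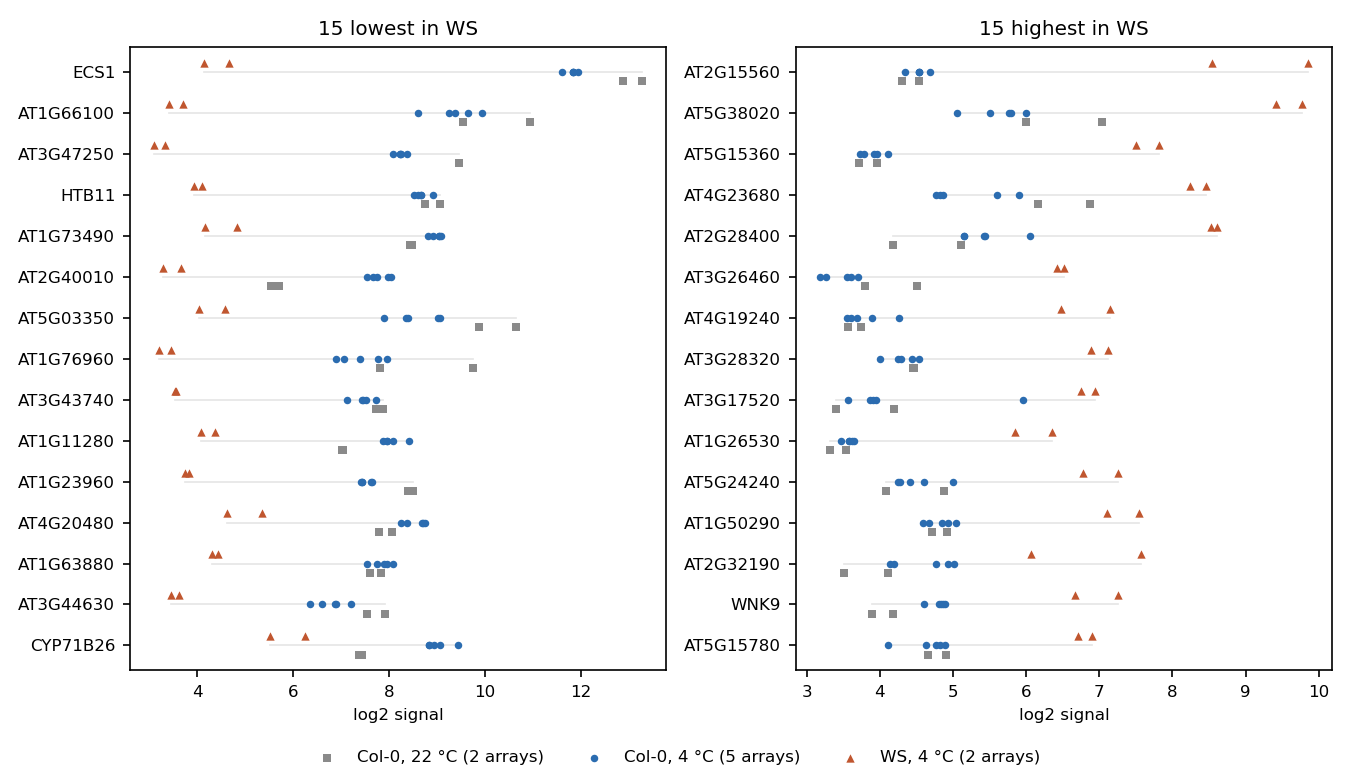
Log2 signal on each array (horizontal axis) for the 15 called genes lowest and the 15 highest in cold WS relative to cold Col-0; squares are Col-0 at 22 °C, circles cold Col-0 and triangles cold WS. ECS1 spans 4.15 to 13.26 over the 9 arrays, and at AT3G17520 a lone cold Col-0 array at 5.96 lies near the WS arrays.

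Of the 261 called genes, 31 have a RefSeq symbol, 20 lower and 11 higher in WS, and 230 are known here by locus number. Groups of genes were lists matched by symbol, synonym or locus number, so members of a family without such a match are not counted. Among the 7 measured genes of the histone list, 2 genes of histone H2B, a core protein of the nucleosome, were called in opposite directions. Of all genes, 0.824% were called higher and 1.13% lower. Counts of calls in all other groups of genes are to be read against the same shares, 1.95% of genes in both directions together. HTB11 read 8.52, 8.66, 8.92, 8.66 and 8.60 in cold Col-0 and 3.94 and 4.11 in WS (log2 difference -4.65, SE 0.14, 25.1-fold, limma adjusted p = 3.16e-07). HTB1 read 9.19, 9.19, 9.32, 9.11 and 9.15 in cold Col-0 and 10.36 and 10.42 in WS (1.20, SE 0.14, 2.3-fold, adjusted p = 0.002). Neither gene's groups overlapped. H2B genes are close in sequence, and how far the probe sets of one member read transcripts of another was not tested. The median difference of the histone list was 0.12.

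Genes of defence differed in both directions. CSA1 (constitutive shade-avoidance 1), a resistance-type receptor gene of the TIR-NB-LRR class, read 5.65, 5.73, 5.94, 5.73 and 5.48 in cold Col-0 and 4.06 and 3.68 in WS, with a log2 difference of -1.84 (SE 0.16 and limma adjusted p = 0.000291). CSA1 was 1 of 2 measured genes of its list, and LOV1, the other, differed by 0.33 and was not called. The list was matched by name, so resistance genes known by locus number alone were not counted. THI2.2, a thionin, or small antimicrobial peptide, read 8.97, 8.97, 8.47, 8.84 and 8.69 in cold Col-0 and 7.56 and 7.07 in WS (-1.47, SE 0.19, adjusted p = 0.00327). PDF2.5, of the defensins, another family of small antimicrobial peptides, was on the other side, at 6.90, 6.08, 6.58, 6.55 and 7.004 in cold Col-0 and 7.99 and 8.77 in WS (1.76, SE 0.29, adjusted p = 0.0105). These were the 2 calls among the 17 measured genes of the defensin and thionin list, beside 1.95% of all genes, and the median was 0.06. Loci of these families without a matching name were not counted. PDF1.2, a jasmonate-induced defensin, overlapped between groups, at 4.91 to 8.47 in cold Col-0 and 9.08 and 8.17 in WS (1.98, SE 0.91, adjusted p = 0.274). Without WS replicate 2 the adjusted p was 0.0501 for THI2.2 and 0.121 for PDF2.5.

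Among the 28 measured genes of the list of ER bodies, jacalins and beta-glucosidases, 2 were called higher and 1 lower. This stands beside 0.824% and 1.13% of all genes, and the list's median was 0.05. The list does not hold AT1G52050, AT1G52060 and AT1G52070, neighbouring jacalin-type genes called higher in WS by 2.04, 2.09 and 1.98 (described below). JAL33, a jacalin-related lectin, read 8.45, 7.79, 8.56, 7.63 and 8.61 in cold Col-0 and 5.11 and 5.62 in WS (log2 difference -2.85, SE 0.29, 7.19-fold, limma adjusted p = 0.000728). Its neighbour JAL34, of the same family, read 9.62, 8.63, 9.45, 9.04 and 9.50 in cold Col-0 and 10.04 and 10.83 in WS (1.19, SE 0.29, adjusted p = 0.0488). The groups did not overlap in either gene, and JAL34 was just inside the threshold: leaving out any array other than set4-2 took its call away (adjusted p between 0.0541 and 0.346). BGLU15, a beta-glucosidase, was higher in WS by 1.03 (SE 0.20, adjusted p = 0.0223), at 7.96 and 8.63 against 6.90 to 7.51. Its call was lost without WS replicate 2 (adjusted p = 0.189), without set4-1 (0.0507) and, by a log2 difference of 0.94, without cold Col-0 replicate 2. PYK10, the main beta-glucosidase of root ER bodies, stood at 11.20 to 11.88 in cold Col-0 and at 11.43 and 12.09 in WS, and was not called (0.19, adjusted p = 0.748).

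Cell wall genes were called on both sides. Of 18 measured genes of cellulose, pectin and wall proteins, 2 were called, ECS1 and CSLC04, both lower, and the list's median was -0.24. CSLC04, a synthase of the xyloglucan backbone, read 6.97, 7.48, 7.48, 7.59 and 7.45 in cold Col-0 and 5.57 and 6.10 in WS (log2 difference -1.56, SE 0.19, limma adjusted p = 0.00235). Among 29 expansins and xyloglucan transferases, enzymes and proteins that loosen or remodel the wall, 1 was called higher and 1 lower, and the median was 0.01. EXPA4, an expansin, read 7.86, 8.38, 8.01, 8.25 and 8.40 in cold Col-0 and 6.99 and 6.97 in WS (-1.20, SE 0.16, adjusted p = 0.00327). XTH18, a xyloglucan endotransglucosylase/hydrolase, read 6.74, 5.67, 6.64, 6.44 and 6.71 in cold Col-0 and 7.71 and 8.31 in WS (1.57, SE 0.30, adjusted p = 0.0201). The groups were apart in all 3 genes, and XTH18 was not called without WS replicate 2 (adjusted p = 0.185). XTH19, of the same family, differed by 1.25 (SE 0.34) with no overlap between groups and was not called (adjusted p = 0.0751). TBL45, of the TRICHOME BIREFRINGENCE-LIKE family of wall polysaccharide acetylation, stood at 8.41 to 9.09 in cold Col-0 and at 7.25 and 7.57 in WS (-1.23, SE 0.19, adjusted p = 0.00771; without WS replicate 1, 0.074).

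Several enzymes of metabolism were called, in both directions. CYP71B26, a cytochrome P450, read 8.83, 9.07, 9.44, 8.94 and 8.83 in cold Col-0 and 6.24 and 5.53 in WS (log2 difference -3.13, SE 0.22, 8.78-fold, limma adjusted p = 5.66e-05). Col-0 at 22 °C stood at 7.38 and 7.44, between cold WS and cold Col-0. CYP71B26 was the lone call among the 22 measured genes of the P450 list, whose median was 0.06. The gene 2A6, whose product resembles oxoglutarate-dependent dioxygenases, read 8.77, 8.62, 8.76, 8.66 and 8.77 in cold Col-0 and 5.86 and 6.03 in WS (-2.77, SE 0.11, adjusted p = 1.8e-06). ALDH6B2, an aldehyde dehydrogenase, was lower in WS at 7.22 and 6.97 against 8.82 to 9.16 (-1.88, SE 0.15, adjusted p = 0.00012). IGPD, an enzyme of histidine synthesis, was lower in WS at 5.39 and 5.49 against 6.39 to 6.62 (-1.03, SE 0.12, adjusted p = 0.00135), and its difference went under 1 without WS replicate 1 (-0.98) or cold Col-0 replicate 3 (-0.99). ACLA-2, a subunit of ATP-citrate lyase, which makes cytosolic acetyl-CoA, was higher in WS at 9.30 and 9.24 against 8.02 to 8.31 (1.09, SE 0.11, adjusted p = 0.000573). STR18, a sulfurtransferase, was higher at 7.09 and 6.62 against 5.35 to 5.80 (1.29, SE 0.17, adjusted p = 0.0036). ARD4, an acireductone dioxygenase of the methionine salvage cycle, was higher at 9.45 and 8.56 against 7.71 to 8.23 (1.07, SE 0.22, adjusted p = 0.0287), a call lost without WS replicate 1 (adjusted p = 0.155) or cold Col-0 replicate 1, 2 or 3 (0.0523 to 0.0646). UGT73B5 stood at 6.34 and 7.51 in WS and 4.84 to 5.59 in cold Col-0 (1.68, SE 0.32, adjusted p = 0.019). Without WS replicate 2 it was not called because of its adjusted p, although the log2 difference of 1.10 stayed above the minimum. It was the lone call among the 51 measured genes of the UDP-glycosyltransferase list (median 0.04), which does not hold family members without a matching name.

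Of 10 measured genes of flavonoid and anthocyanin synthesis, 9 had a difference below 0, beside 6236 of all 13356 genes, and the median was -0.48. In this group 2 genes were called lower, beside 1.13% of all genes, and none higher. AT5MAT, which adds a malonyl group to anthocyanins, read 7.19, 7.37, 7.83, 6.68 and 7.92 in cold Col-0, 5.80 and 5.89 in WS, and 5.21 and 4.39 in Col-0 at 22 °C (log2 difference -1.55, SE 0.33, limma adjusted p = 0.0309). AT4G14090, held in the list by its locus number, stood at 8.13 to 9.81 in cold Col-0 and at 6.45 and 6.84 in WS (-2.19, SE 0.42, adjusted p = 0.0197). DFR, the dihydroflavonol reductase of the pathway, differed by -1.56 (adjusted p = 0.08) and UF3GT, an anthocyanin glycosyltransferase, by -1.67 (adjusted p = 0.069), and neither was called. AT5MAT was not called without either WS array or without cold Col-0 replicate 1, 2 or 3 (adjusted p between 0.0548 and 0.166), and AT4G14090 was not called without WS replicate 1 (0.131) or 2 (0.102).

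Further called genes came from growth, organelles and protein turnover. SP1L2, of the SPIRAL1-like proteins of cortical microtubules, read 7.64, 7.43, 7.48, 7.42 and 6.93 in cold Col-0 and 5.72 and 6.09 in WS (log2 difference -1.48, SE 0.18, limma adjusted p = 0.00235). CLE41, the gene of a peptide that maintains vascular stem cells, stood at 7.42 to 8.36 in cold Col-0 and at 6.76 and 6.49 in WS (-1.32, SE 0.24, adjusted p = 0.0169). LIL3:1, a light-harvesting-like protein of chlorophyll synthesis, stood at 9.58 to 10.30 and at 8.58 and 8.98 (-1.25, SE 0.20, adjusted p = 0.0085). Mfl1, a mitoferrin-like carrier, stood at 7.82 to 8.11 and at 6.92 and 6.56 (-1.21, SE 0.13, adjusted p = 0.00116). QQS, an orphan gene linked to leaf starch, was lower in WS at 3.73 and 3.51 against 4.46 to 5.07 (-1.19, SE 0.24, adjusted p = 0.0265). UBC37, a ubiquitin-conjugating enzyme, was lower at 4.55 and 4.05 against 5.04 to 5.84 (-1.08, SE 0.21, adjusted p = 0.0206). ZW9 was lower at 7.53 and 7.54 against 9.92 to 10.25 (-2.52, SE 0.15, adjusted p = 2.39e-05). WNK9, a kinase of the WNK (with no lysine) family, had the largest difference of the genes with a symbol that were higher in WS. It read 4.86, 4.60, 4.83, 4.80 and 4.90 in cold Col-0, 7.25 and 6.66 in WS, and 3.89 and 4.18 in Col-0 at 22 °C (2.16, SE 0.17, 4.47-fold, adjusted p = 0.000117). Leaving out single arrays ended the calls of CLE41 (WS replicate 1, adjusted p = 0.0655, or 2, 0.152), LIL3:1 (WS replicate 1, 0.0805), UBC37 (WS replicate 2, 0.19, or cold Col-0 replicate 3, log2 difference -0.97) and QQS (either WS array or cold Col-0 replicate 1, 2 or 3, 0.0524 to 0.191).

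ATG8H, of the ubiquitin-like ATG8 proteins that coat autophagosomes, was called higher in WS, at 7.09 and 7.82 against 6.17, 5.57, 6.20, 6.01 and 6.51 (log2 difference 1.36, SE 0.28, limma adjusted p = 0.0265). It was the lone call among the 11 measured genes of the autophagy list, where 1.95% of all genes were called. Of the 11, 10 had a difference above 0, beside 7120 of all 13356 genes, and the median was 0.43, beside 0.02. Its call was lost without WS replicate 2 (adjusted p = 0.226), cold Col-0 replicate 1 (0.0539) or set4-1 (0.0596). AT2G46140, listed also as LEA27, a late embryogenesis abundant gene, was higher by 1.10 (SE 0.20, adjusted p = 0.0177). It was the lone call among the 10 measured genes of its list (median 0.14), which does not hold such genes without a matching name. AT2G41480, listed also as the peroxidase PRX25, was higher by 1.33 (SE 0.16, adjusted p = 0.00184), at 5.51 and 5.34 against 3.84 to 4.31. It was the lone call among the 7 measured genes of the peroxidase and superoxide list (median -0.01). AT4G13840, listed also as CER26, of cuticular wax synthesis, was lower (-1.23, SE 0.27, adjusted p = 0.0349), 1 of 3 genes of its list. AT2G46140 was not called without WS replicate 1 (adjusted p = 0.1) or 2 (0.123), and AT4G13840 not without WS replicate 2 (0.271), cold Col-0 replicate 2 (0.0771) or 3 (0.0629) or either 22 °C array (0.0517).

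**Figure D3:**
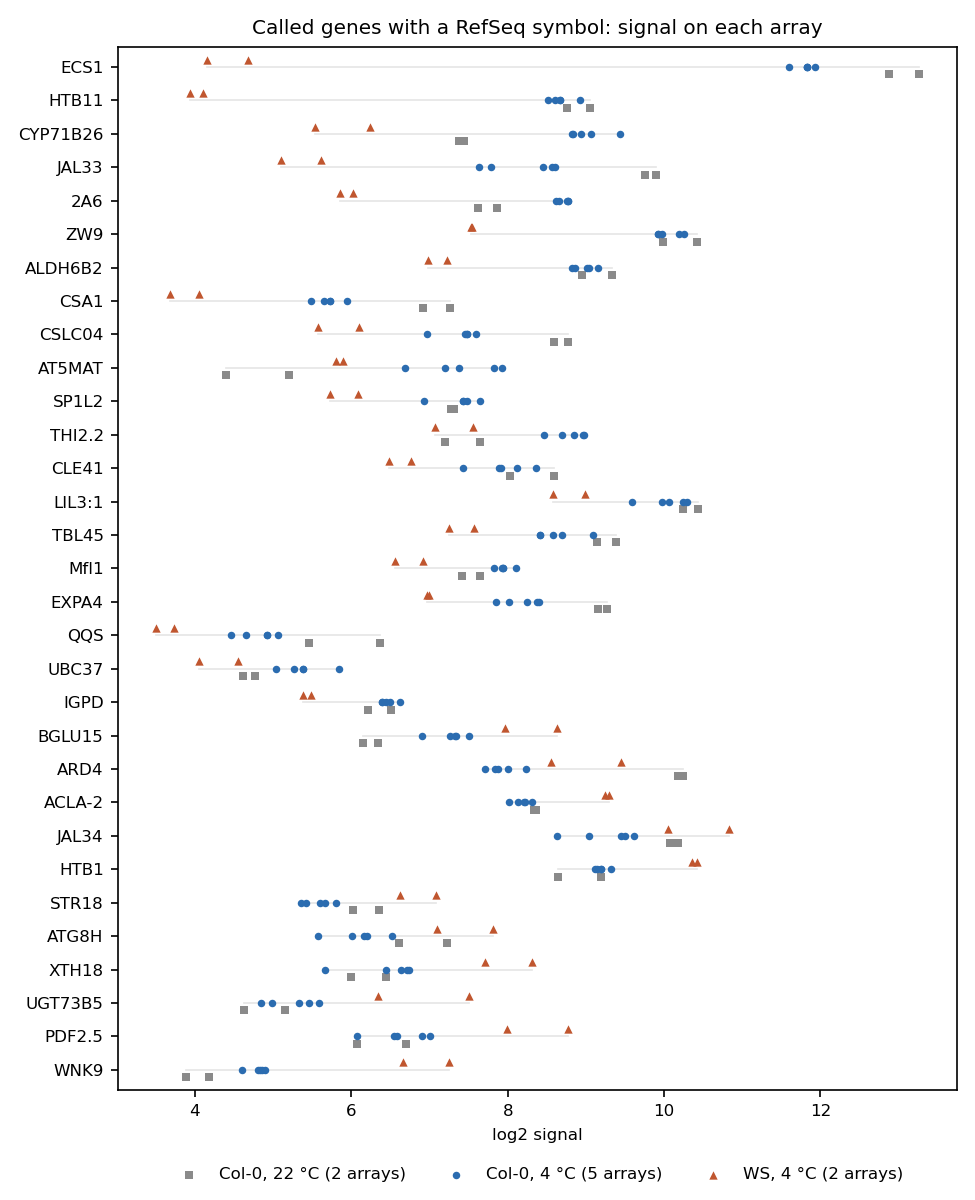
Log2 signal on each of the 9 arrays (horizontal axis) for the 31 called genes that have a RefSeq symbol, ordered by the difference between cold WS and cold Col-0; squares are Col-0 at 22 °C, circles cold Col-0 and triangles cold WS. WS triangles lie to the left of all cold Col-0 circles in the upper 20 genes and to the right in the lower 11.

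Of 52 lists of pathways, families and markers, 1 of which had no measured gene, 16 held at least 1 called gene. Of the 261 called genes, 237 belonged to no list. The share of all genes in no list was not counted, so nothing is read from this number. A family member known by locus number alone could fall outside its list, so the counts and medians do not cover whole families. With 1.95% of all genes called, lists of this size have few or no calls at the background share, and nothing about these groups is read from a count of 0. None of 44 MADS-box and flowering-time genes was called (median -0.01), of 21 sugar transporters (0.02), of 15 bHLH factors (0.02), of 16 auxin genes (0.07) or of 12 cell cycle genes (-0.08). Nor was any of 69 plastid-encoded genes called (median 0.08), although ndhH, a subunit of the plastid NDH complex, differed by -1.61 (SE 0.49, limma adjusted p = 0.1), with WS at 6.65 and 5.46 and cold Col-0 at 6.74 to 8.79. GI, of the circadian clock, stood at 9.87 and 9.95 in WS and at 8.52 to 9.84 in cold Col-0 (log2 difference 0.70, adjusted p = 0.301). The set 4 arrays gave its lowest cold Col-0 values, 8.75 and 8.52, and the difference was 0.33 without them, not called, and 1.27 against them alone (adjusted p = 0.0245). GSTU25, a glutathione transferase, differed by 1.82 with arrays that did not overlap but spread widely within cold Col-0, from 7.75 to 10.51 (SE 0.63, adjusted p = 0.146). None of 17 shoot markers was called, and their differences ran from -0.94 to 0.72 (median -0.06). The lowest was LHCB4.2, of the light-harvesting antenna, at 9.96 and 9.34 in WS and 10.23 to 11.03 in cold Col-0, without overlap (-0.94, SE 0.29, adjusted p = 0.107). Of 7 root markers 1 was called, XTH18, and the median was 0.20. AGL21, a MADS-box gene in this list, was dim, at 4.24 and 4.31 in WS and 3.43 to 3.67 in cold Col-0, without overlap. Its adjusted p was 0.00643, but its log2 difference of 0.69 (SE 0.10) was under the minimum for a call. No call fell among 2 seed storage markers or 3 pollen and flower markers, with medians of 0.10 and -0.20. The part of tissue make-up in the calls was not tested.

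Called genes lay next to one another at 5 places in RefSeq's TAIR10.1 gene order, with 11 of the 258 called protein-coding genes that have a place there. Of 5878 pairs of measured neighbours, 6 pairs were both called, 5 in the same direction and 1, JAL33 and JAL34, in opposite directions. On chromosome 1, AT1G52050, AT1G52060 and AT1G52070 were higher in WS by 2.04 (SE 0.26), 2.09 (0.23) and 1.98 (0.42) on the log2 scale. AT1G52060 read 6.08, 5.47, 5.88, 5.71 and 6.37 in cold Col-0 and 7.78 and 8.22 in WS. The next gene, AR791, did not share the difference (-0.01, limma adjusted p = 0.981). AT3G28310 and AT3G28320 on chromosome 3 were higher by 2.04 (SE 0.12) and 2.70 (0.15). AT3G28320 read 4.44, 4.01, 4.29, 4.53 and 4.25 in cold Col-0 and 7.12 and 6.88 in WS, and the gene after it, AT3G28330, differed by 0.10 (adjusted p = 0.806). On chromosome 5, AT5G37980 and AT5G37990 were higher by 1.31 (SE 0.13) and 1.92 (0.29), a short way before AT5G38020, while AT5G37970 and AT5G37960 on their other side were dim in both groups and differed by 0.15 and -0.07. The last pair, AT5G51620 and AT5G51630, was lower in WS, with differences of -1.78 (SE 0.27) and -1.13 (0.23). Some of these calls were lost when 1 array was left out. AT1G52070 was lost without cold Col-0 replicate 2, 3 or set4-1 (limma adjusted p between 0.0511 and 0.0586). It was also lost without WS replicate 1 (log2 difference 2.35) or 2 (1.62). AT5G37990 was lost without WS replicate 1 (log2 difference 1.64), and AT5G51620 without WS replicate 2 (-1.72). AT5G51630 was lost without set4-1 (limma adjusted p = 0.0537), WS replicate 1 (log2 difference -1.20) or 2 (-1.06). Neighbours of similar sequence can share probe signal, and that was not tested.

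**Figure D4:**
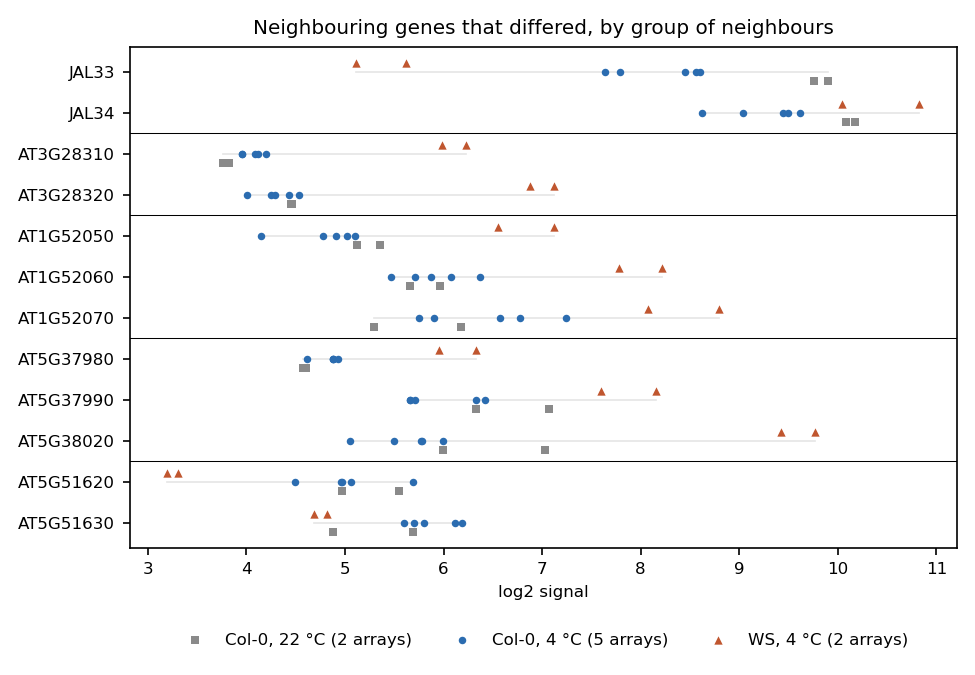
Log2 signal on each array (horizontal axis) for called genes that lie next to one another, with lines between the groups of neighbours, and AT5G38020 shown with the pair that lies near it; squares are Col-0 at 22 °C, circles cold Col-0 and triangles cold WS. JAL33 and JAL34 differ in opposite directions, AT5G51620 and AT5G51630 are lower in WS, and the others are higher in WS.

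Of 146 genes with more than 1 probe set, 13 had a called probe set, and none of the 13 had all of its probe sets called. The called probe set was lower in WS in 12 of the 13 genes, and in 11 it was dimmer in cold Col-0 than the other one. In 12 genes the other probe set differed by less than 0.5 on the log2 scale. At AT5G24710 the called probe set went from 5.63 in cold Col-0 to 3.84 in WS (-1.79, SE 0.24, limma adjusted p = 0.0036), while the other went from 7.09 to 6.996 (-0.10, SE 0.21, adjusted p = 0.873). At AT2G07360 the means were 6.81 and 5.34 on one probe set (-1.47, SE 0.22, adjusted p = 0.00621) and 8.42 and 8.29 on the other (-0.14, SE 0.14). AT1G01320 gave -1.65 (SE 0.27) and -0.37 (SE 0.35), and AT5G35430 gave -1.04 (SE 0.24) and -0.01 (SE 0.16). The exceptions were AT1G31690, where both were lower (-1.35 and -1.13, the second not called, adjusted p = 0.0946), and AT1G31050, where the called one was higher (1.002, the other 0.14). For 2A6 the called probe set was the brighter, and the other, at 3.68 in cold Col-0 and 3.54 in WS, was dim in both. Of the 303 probe sets of these 146 genes, 4.29% were called, beside 2.14% of all. Because the brighter probe set stood for a gene, most of these 13 are not among the called genes.

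**Figure D5:**
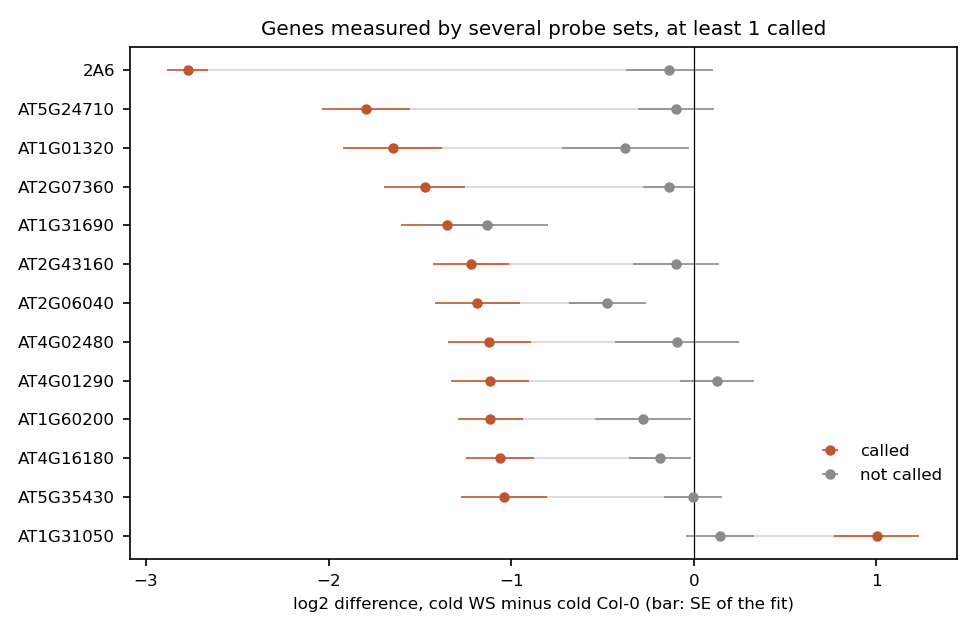
Difference between cold WS and cold Col-0 on the log2 scale (horizontal axis, bars are the SE of the fit) for each probe set of the 13 genes that have several probe sets and at least 1 called. In 12 of the 13 genes the uncalled probe set lies within 0.5 of 0, and AT1G31690 is the exception.

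All 5 nuclear chromosomes held calls at similar shares. Chromosomes 1 to 5 had 67 of 3411, 47 of 2169, 54 of 2720, 35 of 1935 and 58 of 2982 genes called, or 1.81% to 2.17%. Of 923 pseudogenes 3 were called, all lower in WS: AT4G08110 with a log2 difference of -1.54 (SE 0.27), AT4G13120 of -1.47 (0.17) and AT3G15310 of -1.38 (0.25). All 3 were of low signal, with cold Col-0 means of 4.47, 5.37 and 4.45, and those of WS at 2.92, 3.89 and 3.07. The call of AT4G08110 was lost without WS replicate 2 (limma adjusted p = 0.136), and that of AT3G15310 without WS replicate 1 (0.0992) or 2 (0.113). Probe sets listed with several genes were called in 28 of 503 cases (5.57%, 20 lower), those with a single gene in 2.01% and those with no listed gene in 2.13%. Of the lower calls 22 had a dim WS mean, under 3.69, and of the higher calls 15 had a dim cold Col-0 mean.

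The largest difference toward higher signal in WS was at a probe set with no listed gene, 263174_at, chosen for mention after its values were seen, as were the 3 that follow. It read 7.18, 7.09, 6.72, 6.95 and 7.33 in cold Col-0, 12.68 and 12.51 in WS, and 8.80 and 7.74 in Col-0 at 22 °C. Its log2 difference was 5.54 (SE 0.26, 46.6-fold, limma adjusted p = 5.76e-06), and WS was bright where every Col-0 array was moderate. The next among called probe sets with no listed gene was 248727_at, at 3.93 to 4.39 in cold Col-0 and 7.15 and 6.89 in WS (2.85, SE 0.16). In the other direction, 249752_at stood at 8.27 to 9.24 in cold Col-0 and at 4.15 and 4.84 in WS (-4.37, SE 0.26), and 245448_at at 6.70 to 7.97 and at 3.46 and 3.35 (-4.17, SE 0.35). In all, 186 of the 486 called probe sets had no listed gene.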

How the data were processed

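Total RNA of whole seedlings was hybridised to ATH1 arrays, 1 sample per array, in 3 groups: Col-0 at 22 °C (2 arrays), Col-0 at 4 °C (5) and WS at 4 °C (2). Each deposited column holds log2 signals of a single array, which, per the submitters' processing notes, the authors made by RMA with the R package affy, whose versions are not given in the sources used here. Of 22810 probe sets, 64 controls were left out. The platform annotation gave a single gene for 13513 of the rest, several for 503 and none for 8730, and 13436 of the single-gene probe sets were matched to RefSeq (TAIR10.1) for symbols, synonyms and gene order. Where a gene had several probe sets, the brightest (by its mean on all 9 arrays) represented it.

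Group means were fitted to all 9 arrays with limma 3.58.1 in R 4.3.3 (lmFit, eBayes), where the 22 °C arrays add to the estimate of the spread (6 residual degrees of freedom). The Benjamini-Hochberg adjustment covered all 22746 probe sets, and calls required an adjusted p under 0.05 together with an absolute log2 difference of 1 or more. The set 4 contrast used 4 group means. Detection calls were not used here. Precision is limited by how few arrays there are.

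The members and the gene lists were chosen with earlier results of these data known. Genes were named by rule: the 15 highest and 15 lowest called genes whose WS arrays do not overlap cold Col-0, up to 3 called genes and 1 uncalled gene of each list by size of difference, the 3 largest calls per chromosome, up to 12 runs of neighbouring calls, 3 COR genes, 2 root markers and 2 reference genes. The called genes with a symbol, the genes with several probe sets, DFR and the uncalled neighbours were added after their values were seen. Lists were matched by symbol, synonym or locus number, so family members without such a match are not in them. They are described by counts and medians without a test. Alternatives changed the arrays, the normalization, the filter on dim probe sets, the moderation of the variances, the thresholds and the probe set for a gene, and left out each array in turn. No coordinates are printed because the sources used here name no build for the arrays' annotation. No sequences are shown.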

Additional observations from a re-analysis of the deposited data

Results flagged for a closer look

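Among the 5 cold Col-0 arrays, 8 of 126 groups of values had a lone array whose gap to the nearest other array was more than 0.71 of the whole range, a distance that chance alone gives in about 1 in 20 groups. The array median itself was such a group, with replicate 3 at 6.06 and the other 4 between 5.81 and 5.88. Replicate 3 was also the lone array at AT3G17520, at 5.96 against 3.57 to 3.94, and at EFR, a receptor kinase gene for a bacterial elongation factor peptide, at 5.40 against 4.88 to 4.98. Replicate 2 was low at XTH18, at 5.67 against 6.44 to 6.74, and at AT5G37980, at 4.62 against 4.88 to 4.93. Replicate 1 was low at CSLC04, at 6.97 against 7.45 to 7.59. The set 4 arrays were alone at TPS-CIN, a terpene synthase gene, where set4-1 stood at 3.94 against 2.85 to 3.16, and at CHX20, a cation/proton exchanger gene, where set4-2 stood at 5.66 against 6.17 to 6.37. AT3G17520, XTH18, AT5G37980 and CSLC04 were called different between WS and cold Col-0, and EFR, TPS-CIN and CHX20 were not.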

How the results depend on the processing

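The count of 486 called probe sets (195 higher and 291 lower in WS, 102 at least 4-fold) stayed within 1.5 times of itself under the alternatives tried, with these exceptions. An adjusted p under 0.01 gave 286 (98 higher, 188 lower), and dropping the minimum difference gave 1083 (450 and 633). Leaving out 1 array gave 285 to 549 calls, the lowest without WS replicate 2, with 111 to 231 higher, 174 to 319 lower and 89 to 131 at least 4-fold. WS against the set 4 arrays alone gave 346 calls and ended 22 of the 72 calls among named genes. The share of lower calls ran from 51.4% to 65.7%. In every fit that left out 1 array, 190 of the probe sets were called (60 higher, 130 lower).

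A replicate block (335 calls, 138 higher and 197 lower) moved no count by over 1.5 times, but ended 20 of the 72 calls among named genes, STR18 (adjusted p = 0.0632) among them. Differences between replicates 1 and 2 showed no strong shared pattern across groups (correlations of -0.14, 0.089 and -0.19). Such differences cannot settle whether same-numbered arrays were grown or processed together.

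For set 4 against the other cold Col-0 arrays, the 1 call became 2 after quantile normalization and ranged from 0 to 1 when an array was left out. Of 2599 repeats for named genes, 2407 kept their direction and their side of the threshold, 140 ended a call, 26 made one and 26 reversed the sign of a gene that was not called. The cause was not tested. Without the set 4 arrays, or with them as their own group, the reversed differences were 0.12 for EXPA7, 0.11 for TPS-CIN and -0.13 for COR47, and under the replicate block 0.23, 0.15 and -0.12. Against set 4 they were 0.05003 for AT5G52050, 0.0245 for LTI30 and -0.0314 for AT4G34270, and after median centring 0.0228 for AT5G52050 and 0.0320 for LTI30. Leaving out 1 array gave ranges that crossed 0: -1.25 to 0.18 for ATPMEPCRB, -0.38 to 0.0381 for EXPA7, -0.18 to 0.0929 for TPS-CIN, -0.0458 to 0.0125 for AT5G52050, -0.0267 to 0.0170 for LTI30, -0.13 to 0.17 for COR47 and -0.14 to 0.52 for PYK10.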
